A study of Homo sapiens with 12 samples.

Results

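The 50 genes described here act in G2 and mitosis, and were chosen by symbol among the 24302 features of the count table. Each of the 50 symbols was found, and all 50 were among the 14792 features that passed the filter on low counts. RNA was sequenced from KYSE150, an established cell line of human esophageal squamous cell carcinoma, in 12 libraries that form 4 groups of 3. Of these groups, 3 carried GFP-TFAP2β (called WT here), GFP-TFAP2β-Mut_IDR3 (Mut_IDR3) or GFP-TFAP2β-ΔIDR3 (written dIDR3), and the control carried GFP alone, so all 4 groups share the GFP tag and the cell line. TFAP2β belongs to the AP-2 transcription factors and is encoded by TFAP2B, IDR stands for an intrinsically disordered region, and the series describes both altered forms as unable to undergo phase separation. The labels do not say which bases were changed in Mut_IDR3, which promoter drove the constructs, or whether the replicates were separate cultures, so p-values measure the spread between these libraries, which may be technical.

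Cells enter mitosis when CDK1, bound to cyclin B, is activated by CDC25 phosphatases, and they leave it when the anaphase-promoting complex (APC/C) with CDC20 marks cyclin B and securin for destruction. Between these steps kinetochores attach chromosomes to the spindle, the spindle checkpoint holds back the APC/C until all are attached, and kinesin motors and the chromosomal passenger complex drive alignment and cytokinesis. Most of these genes are transcribed in a wave that peaks in G2 and mitosis, under the MuvB complex with B-MYB (MYBL2) and FOXM1, and are repressed in resting cells by the DREAM complex. Such waves make their mRNAs follow the share of cells in G2 and mitosis, and in bulk RNA fewer cells in a phase and less RNA per cell cannot be told apart.

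Library totals ranged from 30652851 to 43464956 counts. TFAP2B, the gene carried by the constructs, had 285, 232 and 323 counts per 1000000 of the scaled library (CPM) in WT libraries, 687, 732 and 687 CPM in Mut_IDR3 libraries and 739, 742 and 632 CPM in dIDR3 libraries, against 0, 0.279 and 0.0924 CPM in GFP libraries. All 9 construct libraries lay above all GFP libraries, while counts per gene cannot tell the 3 forms apart. Libraries of both altered forms lay above those of WT, and the part of this difference in level in the comparisons with WT was not tested. Of 12 markers of squamous cells, 11 had a mean of at least 1 CPM in WT libraries and 12 in each of the other groups. The summed level of these markers was 7591 to 8718 CPM in WT libraries, 5989 to 6164 CPM in Mut_IDR3 libraries and 5111 to 5370 CPM in dIDR3 libraries, against 5843 to 6052 CPM in GFP libraries. Single markers moved both ways. By the DESeq2 software, 6 were higher and 4 lower in WT against GFP, when 8168 of 20184 features were called. In Mut_IDR3 against GFP 3 were higher and 2 lower, when 3619 were called. In dIDR3 against GFP 1 was higher and 7 lower, when 4633 were called. The 6 fibroblast markers summed to at most 6.56 CPM in any library, and PTPRC and PECAM1, which define leukocytes and endothelium, had no counts in any group. The 8 leukocyte and endothelial markers together summed to 82.2 to 104 CPM in WT libraries, 51.6 to 57.4 CPM in Mut_IDR3 libraries and 50.1 to 51.6 CPM in dIDR3 libraries, against 70.3 to 75.2 CPM in GFP libraries. CD68, a lysosomal protein of macrophages that other cells also express, was the only one of the 8 with a mean of at least 1 CPM, and the part of these levels in the results was not tested. Among the 25 G2/M and mitosis genes of lower GC content, described further on, WT replicate 3 lay closer to the GFP libraries than the other WT libraries did, and dIDR3 replicate 1 lay further from them than the other dIDR3 libraries, so counts without either library are given with the results.

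Promoters of genes of this class are known for the cell cycle homology region (CHR, TTTGAA or TTCGAA), which MuvB binds, and for CCAAT boxes, which NF-Y binds. The windows of 4 genes are shown: CDC20 had the highest and KIF15 the lowest called fold change with WT, and CDK1 with CCNB1 forms the pair that defines G2/M. Each window runs from 250 bases before to 50 bases after the start of the gene, from RefSeq on GRCh38.p14, and capitals mark CHR and CCAAT motifs read in the direction shown and TTCAAA, the CHR read on the other strand.
CDC20, chr1:43358731-43359030, plus strand: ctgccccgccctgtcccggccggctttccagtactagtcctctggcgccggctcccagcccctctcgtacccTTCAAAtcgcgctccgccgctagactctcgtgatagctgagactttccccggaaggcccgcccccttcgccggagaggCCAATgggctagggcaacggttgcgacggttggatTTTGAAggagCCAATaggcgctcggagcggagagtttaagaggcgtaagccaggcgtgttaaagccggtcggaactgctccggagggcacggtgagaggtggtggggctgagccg
KIF15, chr3:44761544-44761843, plus strand: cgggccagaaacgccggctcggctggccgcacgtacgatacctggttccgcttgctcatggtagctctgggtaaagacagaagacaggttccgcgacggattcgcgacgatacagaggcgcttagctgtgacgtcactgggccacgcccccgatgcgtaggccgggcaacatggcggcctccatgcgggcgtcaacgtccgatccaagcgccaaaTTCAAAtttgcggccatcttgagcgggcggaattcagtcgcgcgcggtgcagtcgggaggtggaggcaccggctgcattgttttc
CCNB1, chr5:69166900-69167199, plus strand: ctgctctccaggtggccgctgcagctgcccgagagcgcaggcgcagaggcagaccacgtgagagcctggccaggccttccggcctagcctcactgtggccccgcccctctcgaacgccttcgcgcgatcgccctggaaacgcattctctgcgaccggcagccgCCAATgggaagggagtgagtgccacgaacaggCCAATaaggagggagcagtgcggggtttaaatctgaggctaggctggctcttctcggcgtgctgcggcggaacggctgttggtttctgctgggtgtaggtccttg
CDK1, chr10:60778081-60778380, plus strand: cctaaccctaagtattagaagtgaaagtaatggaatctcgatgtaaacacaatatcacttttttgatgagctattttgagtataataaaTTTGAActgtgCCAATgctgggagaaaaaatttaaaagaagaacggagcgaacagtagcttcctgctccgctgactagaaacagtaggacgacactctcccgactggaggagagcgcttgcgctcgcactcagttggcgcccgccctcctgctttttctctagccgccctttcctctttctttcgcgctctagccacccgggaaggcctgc
CDC20 held CHR letters in both orientations and a pair of CCAAT boxes, KIF15 held a CHR on the other strand, CCNB1 held CCAAT boxes without CHR letters in this window, and CDK1 held a CHR next to a CCAAT box.

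Windows were at hand for 43 of the 50 genes. AURKA, BIRC5, BUB3, FOXM1, TPX2, TTK and UBE2C had no entry. Some genes had several starts listed (55 windows for the 43 genes). Only the first listed was searched for each gene, here and in the background. On either strand, CHR letters occurred in 32 of the 43 windows (74.4%), against 13.3% of the 14903 windows of genes in the count table. TTTGAA alone was in 31 windows (72.1%, against 11.99%), and TTCGAA in those of BUB1 and NDC80 (4.65%, against 1.60%). A CCAAT box was in 30 windows (69.8%, against 36.3%), and 24 windows held both motifs. KIF2C, CENPE, CDC25C, CDC25B and MYBL2 held neither in the window searched, and their other starts were not searched. The 43 CHR matches had a median position 26 bases before the start, and 32 of them lay from 60 bases before to 49 bases after it. The AP-2 motif GCCNNNGGC, a palindrome, was in 7 windows (16.3%, against 28.7%): those of NEK2, BUB1, PTTG1, BUB1B, KIF23, CDC25B and MYBL2. A match is a run of letters and not a measured binding site.

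With WT, 30 of the 50 genes fell and 16 rose, and CCNB1, CCNB2, CDC25C and BUB3 did not pass the test. Across all features tested, 54.9% were called at an adjusted p under 0.05, of which 27.7% of all features were higher and 27.1% lower, so the share of these genes that fell was above the background and the share that rose was near it. The median log2 fold change of the 50 genes was -0.42, against -0.008 for all features tested, and single genes ran from -1.58 to 0.74. The genes that fell included 7 of 9 kinesins, 5 of 6 kinetochore genes, 4 of 5 checkpoint genes and all 5 genes of chromosome structure, while all 3 APC/C genes, all 4 passenger complex genes and both transcription factors rose. The 3 WT libraries lay apart from the 3 GFP libraries for all 46 called genes. These genes were called from the same libraries, and the share of all features that lay apart was not counted. With 3 libraries on each side, the smallest p of an exact permutation test for 1 gene is 0.1. Without WT replicate 3, 17 genes were higher and 29 lower. Of the 46 calls, 40 held whichever single library was left out, and those of CCNA2, NEK2, BUB1, CENPA, KIF20B and KIF2C did not.

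**Figure D1:**
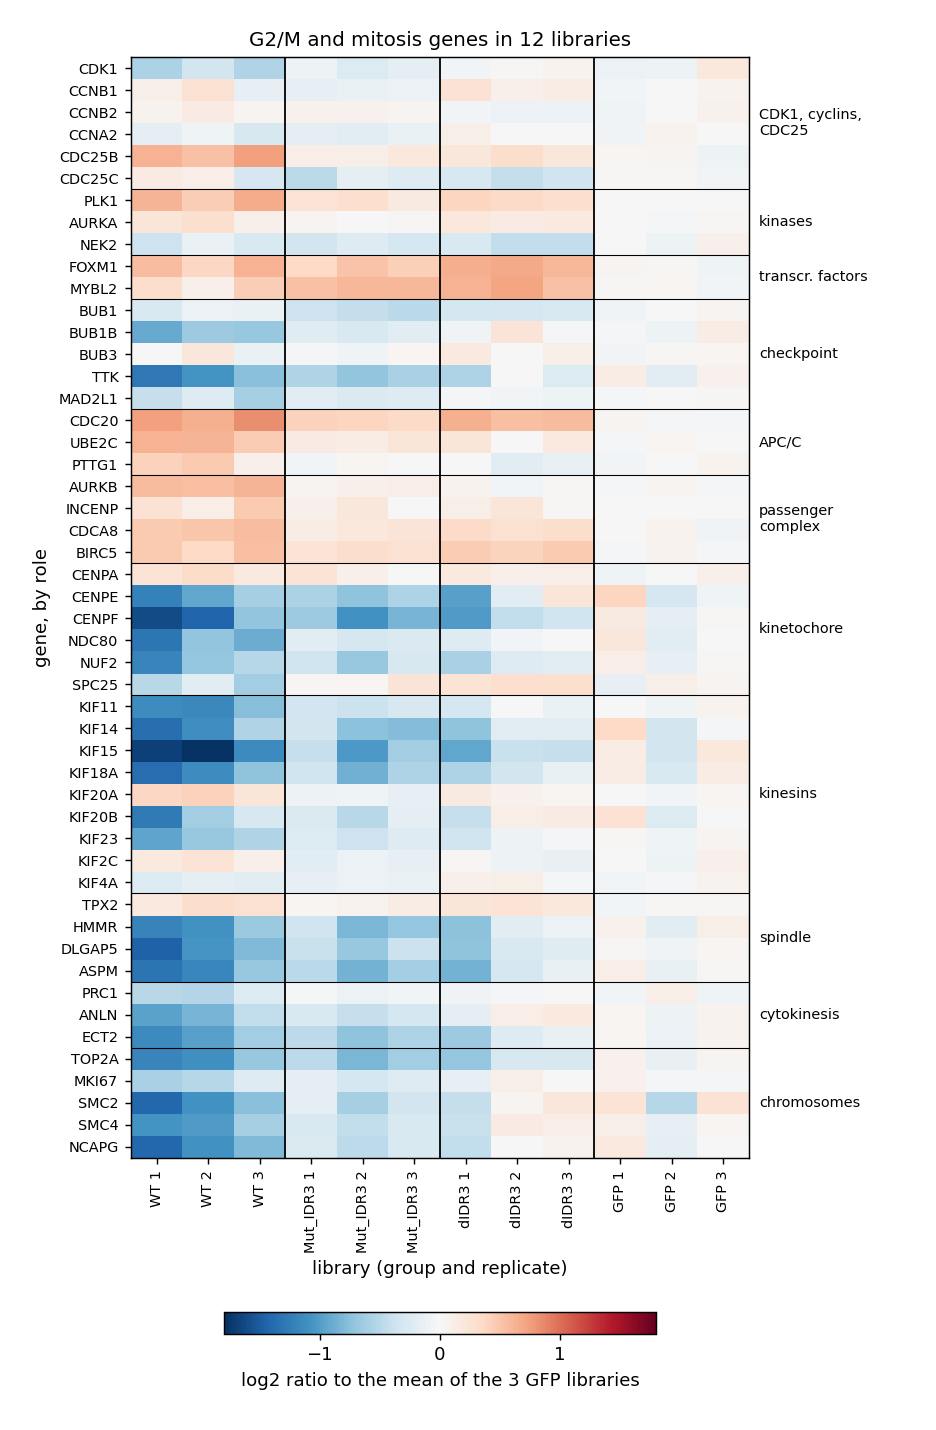
Log2 ratio of each of the 50 genes to the mean of the 3 GFP libraries (on log2 of CPM plus 0.5, colour scale from blue, lower, to red, higher), with genes in rows by role and the 12 libraries in columns. In WT libraries the kinesins, kinetochore, spindle and chromosome genes are mostly blue and the APC/C and passenger complex genes red, and both altered forms are paler.

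The summed level of the 50 genes moved less than single genes did. It was 5475 ± 126 CPM in WT libraries, 5215 ± 78.7 CPM in Mut_IDR3 libraries and 5792 ± 108 CPM in dIDR3 libraries, against 5493 ± 124 CPM in GFP libraries (SD, n = 3 each). These sums depend on the TMM scaling. Without it, the 50 genes held 0.526 ± 0.011% of the counts in WT libraries and 0.525 ± 0.011% in Mut_IDR3 libraries. The share was 0.587 ± 0.019% in dIDR3 libraries, against 0.56 ± 0.017% in GFP libraries. Per kilobase of the longest transcript, GFP libraries held a mean of 197 CPM of UBE2C and 183 CPM of PTTG1, against a median of 23.3 CPM over the 50 genes, 2.20 CPM of ASPM and 1.16 CPM of CENPE.

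Genes that rose and genes that fell differed in the GC content of their transcripts. The 16 genes that rose had a GC content of 46.57% to 60.54% (median 51.82%), and the 30 that fell had 34.2% to 48.27% (median 39.25%). The 50 genes share their libraries and are not independent of each other. Across them, Spearman's rho between GC content and log2 fold change was 0.842, against 0.509 over 12724 tested genes with a GC value. With transcript length it was -0.541 across the 50 genes and -0.255 over all. Of the 25 genes above the median GC of 42.2%, 16 rose, 6 fell and 3 did not pass, with a median log2 fold change of 0.26. Of the 25 at or below it, 24 fell and BUB3 did not pass; edgeR called 0 of them higher, as did an unadjusted p under 0.05, DESeq2 and limma-voom.

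**Figure D2:**
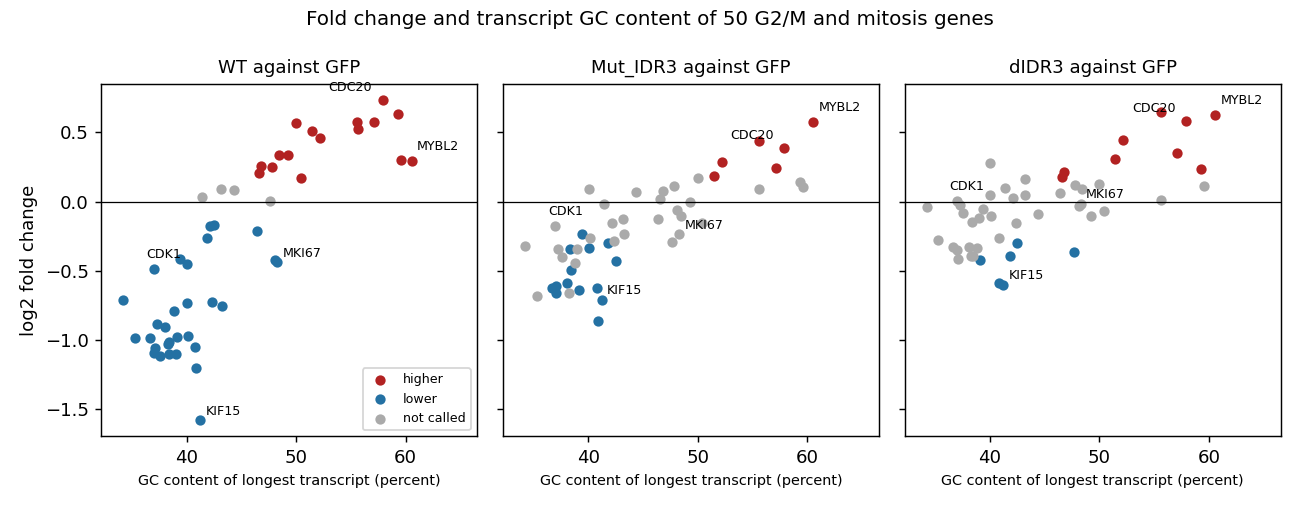
Log2 fold change against GFP (vertical axis) and GC content of the longest transcript in percent (horizontal axis) for the 50 genes, with 1 point a gene, coloured by call. Genes called higher with WT lie above 46% GC, genes called lower lie below 49%, and the slope is less steep with Mut_IDR3 and dIDR3.

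The same split appeared library by library. The 25 genes of low GC content had a median log2 ratio to the GFP mean of -1.20, -1.02 and -0.62 in WT libraries, -0.34, -0.60 and -0.31 in Mut_IDR3 libraries and -0.45, -0.05 and -0.11 in dIDR3 libraries, against 0.10, -0.14 and 0.04 in GFP libraries. All 3 WT libraries lay below every other library, while dIDR3 libraries ranged from inside the GFP range to the level of Mut_IDR3. The 25 genes of high GC content had medians of 0.25, 0.29 and 0.17 in WT libraries, 0.05, 0.06 and 0.01 in Mut_IDR3 libraries and 0.16, 0.10 and 0.04 in dIDR3 libraries, against -0.004, 0.000 and 0.005 in GFP libraries.

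When the trend with GC content over all genes was removed from every library, 31 of the 46 calls with WT (67.4%) were still made with the same sign, 13 higher and 18 lower, and the median of the 50 genes was -0.04. In all, 37 of the 50 genes were called, 19 higher and 18 lower, when 7111 of the 14792 features tested were called. Directions over all features were not counted under this setting, which left tested features without a GC value unadjusted. CDK1, CCNA2 and BUB1, lower with WT as tested, were then called higher, and CCNB1, CCNB2 and BUB3 were newly called higher. NEK2, MYBL2, MAD2L1, INCENP, CENPE, NUF2, SPC25, KIF14, KIF20B, KIF2C, HMMR and SMC4 were no longer called. Whether the trend arose in library preparation or in the cells was not tested, and the value with the GC trend removed is given beside most of the genes described in the next paragraphs.

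**Figure D3:**
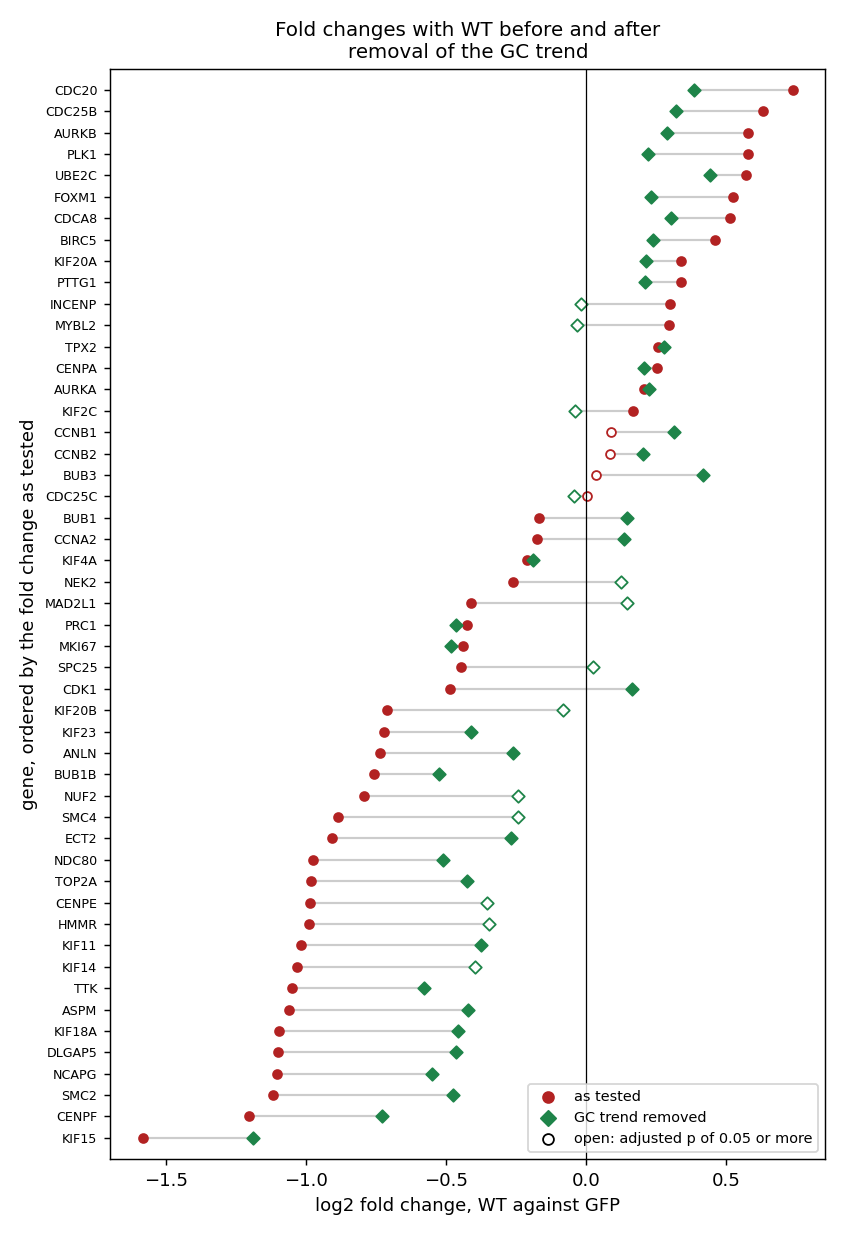
Log2 fold change of WT against GFP for each of the 50 genes as tested (red circles) and with the GC trend removed (green diamonds), ordered by the value as tested; open symbols have an adjusted p of 0.05 or more. Values move towards 0 for most genes, and CDC20 at the top and KIF15 and CENPF at the bottom are called either way.

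Of the genes that drive entry into mitosis, CDC25B rose, CDK1 and CCNA2 fell, and both B-type cyclins and CDC25C did not pass the test. CDK1, the kinase itself, had 59.7, 70.4 and 60.4 CPM in WT libraries, 83.1, 74.4 and 78.8 CPM in Mut_IDR3 libraries and 85.4, 89.8 and 92.9 CPM in dIDR3 libraries, against 82.5, 83.2 and 101 CPM in GFP libraries. The WT libraries were the lowest, and the libraries of both altered forms overlapped those with GFP. The change with WT was a 1.40-fold decrease (log2 fold change -0.49, SE 0.08, adjusted p = 0.000175), but 0.16 with the GC trend removed (adjusted p = 0.0475), so its direction depends on that step. CCNB1, cyclin B1, had 424, 476 and 356 CPM in WT libraries, 354, 363 and 366 CPM in Mut_IDR3 libraries and 470.4, 419 and 430.5 CPM in dIDR3 libraries, against 379, 392 and 410.4 CPM in GFP libraries. WT libraries spanned the whole range of GFP libraries (log2 fold change 0.09, SE 0.08, adjusted p = 0.376). It was called higher with the GC trend removed (0.31, adjusted p = 0.000789) and without WT replicate 3 (0.20, adjusted p = 0.014). CDC25B, a phosphatase that activates CDK1, had 166, 155 and 179 CPM in WT libraries, 117, 116 and 122 CPM in Mut_IDR3 libraries and 124, 134 and 123 CPM in dIDR3 libraries, against 109.9, 112 and 101 CPM in GFP libraries. All libraries with a construct lay above all GFP libraries, WT libraries the highest, and the log2 fold change with WT was 0.63 (SE 0.06, adjusted p = 7.21e-07; 0.32 with the GC trend removed). CCNA2, cyclin A2, averaged 125 ± 8.86 CPM in WT libraries and 141 ± 6.19 CPM in GFP libraries (SD, n = 3 each), a log2 fold change of -0.18 that was 0.13 with the GC trend removed (adjusted p = 0.0332). CCNA2 was not called without WT replicate 3 (adjusted p = 0.0854), GFP replicate 2 or GFP replicate 3.

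Among the mitotic kinases PLK1 and AURKA rose and NEK2 fell. PLK1, which acts at centrosomes, kinetochores and the midzone, had 290.1, 257 and 301 CPM in WT libraries, 226, 235 and 213 CPM in Mut_IDR3 libraries and 249, 242 and 235 CPM in dIDR3 libraries, against 189.6, 189.8 and 189.9 CPM in GFP libraries. The groups did not overlap between WT and GFP or between either altered form and GFP, and GFP libraries were almost identical. Its level with WT was 1.49-fold that with GFP (log2 fold change 0.58, SE 0.06, adjusted p = 1.12e-06; 0.22 with the GC trend removed). AURKA, the Aurora kinase of the spindle poles, rose by 0.21 on the log2 scale (adjusted p = 0.00347), and 0.23 with the GC trend removed. NEK2, a centrosomal kinase, had 27.0, 32.3 and 29.1 CPM in WT libraries, 27.9, 30.0 and 28.2 CPM in Mut_IDR3 libraries and 29.2, 25.8 and 25.8 CPM in dIDR3 libraries, against 35.1, 33.1 and 37.6 CPM in GFP libraries. The libraries of the 3 forms overlapped and all lay below those with GFP, and the call with WT (log2 fold change -0.26, adjusted p = 0.0183) was lost without WT replicate 1, GFP replicate 1 or GFP replicate 3 and with the GC trend removed (0.12).

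FOXM1 and MYBL2, the transcription factors of the G2/M wave, were higher with all 3 forms of TFAP2β. FOXM1 had 212, 186 and 221 CPM in WT libraries, 184, 206 and 194 CPM in Mut_IDR3 libraries and 226, 229 and 218 CPM in dIDR3 libraries, against 148, 146 and 137 CPM in GFP libraries. All 9 libraries with a construct lay above all 3 GFP libraries, and the highest 2 were dIDR3 libraries. The log2 fold changes were 0.52 with WT, 0.44 with Mut_IDR3 and 0.65 with dIDR3 (adjusted p = 6.7e-06, 0.000477 and 5.03e-06), and with WT 0.23 once the GC trend was removed. MYBL2 had 152, 130.4 and 167 CPM in WT libraries, 176, 186 and 185 CPM in Mut_IDR3 libraries and 189.9, 200.1 and 177 CPM in dIDR3 libraries, against 124, 125 and 118 CPM in GFP libraries. Here both altered forms lay above WT, by log2 fold changes of 0.28 for Mut_IDR3 (adjusted p = 0.00636) and 0.33 for dIDR3 (adjusted p = 0.00159), while WT exceeded GFP by 0.29 (adjusted p = 0.00365), or -0.03 with the GC trend removed.

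**Figure D4:**
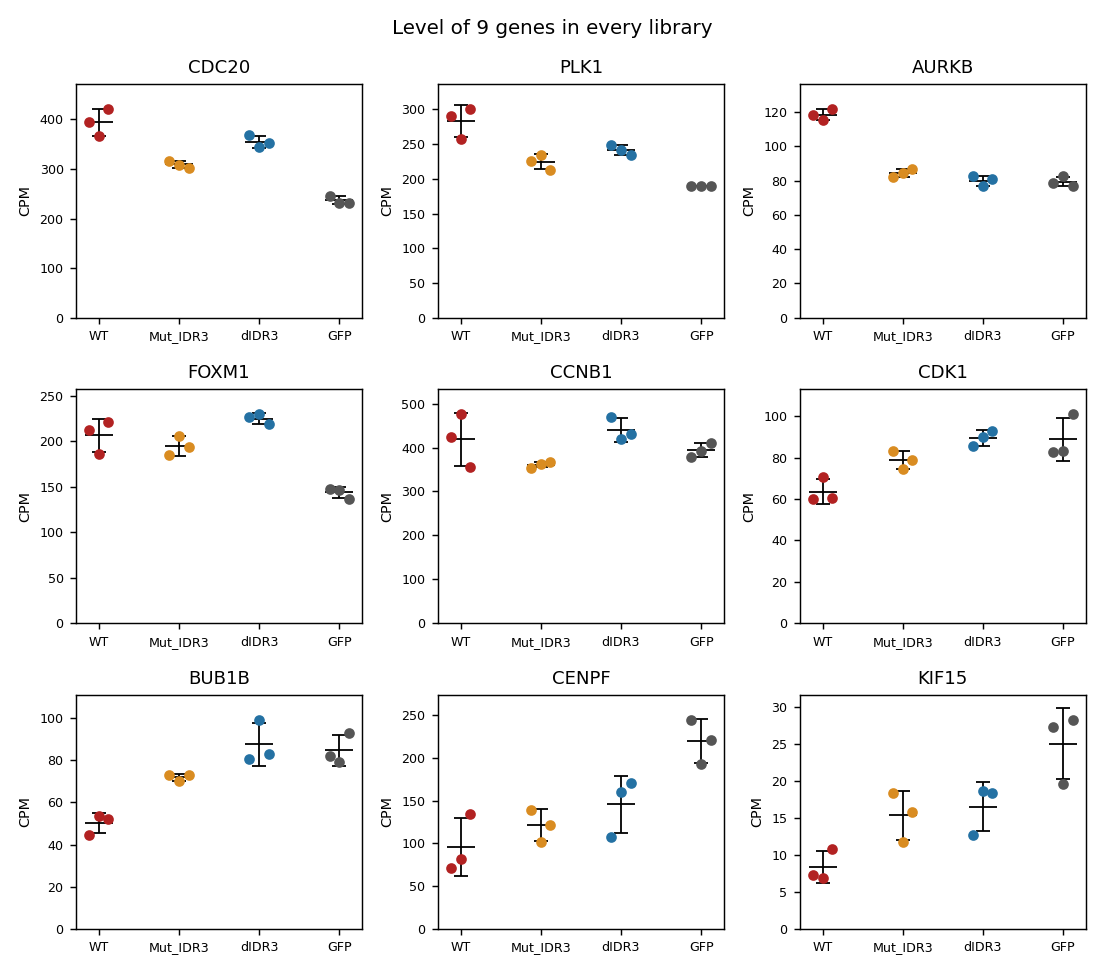
Level of 9 genes in CPM (vertical axes start at 0) in the 3 libraries of each group (points), with the mean and SD (bars). CDC20, PLK1 and AURKB have their highest mean with WT, CDK1, BUB1B, CENPF and KIF15 their lowest, and CCNB1 overlaps between WT and GFP.

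The genes of the APC/C step rose with WT as a group of 3. CDC20, the activator of the APC/C, had 394, 368 and 422 CPM in WT libraries, 317, 309 and 302 CPM in Mut_IDR3 libraries and 368, 345 and 352 CPM in dIDR3 libraries, against 246, 232 and 232 CPM in GFP libraries. The libraries with each construct lay above those with GFP, and those with WT reached down to the highest dIDR3 library. With WT it was 1.67-fold its GFP level (log2 fold change 0.74, SE 0.05, adjusted p = 4.12e-08), and the log2 fold change was 0.38 with the GC trend removed. UBE2C, the ubiquitin-conjugating enzyme of the APC/C, had 278, 276 and 246 CPM in WT libraries, 199.7, 198 and 208 CPM in Mut_IDR3 libraries and 208, 179 and 204 CPM in dIDR3 libraries, against 176, 185 and 179 CPM in GFP libraries. WT libraries stood above all 9 others (log2 fold change 0.57, SE 0.06, adjusted p = 2.71e-06; 0.44 with the GC trend removed). PTTG1, the securin that the APC/C destroys, rose by 0.34 on the log2 scale (adjusted p = 0.00218; 0.21 with the GC trend removed), with PTTG2, a near-identical copy, at 1 count in all libraries together.

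All 4 genes of the chromosomal passenger complex rose with WT, by log2 fold changes of 0.58 for AURKB, 0.51 for CDCA8, 0.46 for BIRC5 and 0.30 for INCENP. AURKB, its kinase, had 118, 115 and 122 CPM in WT libraries, 82.1, 84.7 and 86.7 CPM in Mut_IDR3 libraries and 82.6, 76.9 and 80.7 CPM in dIDR3 libraries, against 78.6, 82.6 and 77.2 CPM in GFP libraries. WT libraries lay above all others, and both altered forms overlapped GFP (log2 fold change 0.58, SE 0.05, adjusted p = 3.45e-07 for WT against GFP; 0.29 with the GC trend removed). CDCA8, borealin, had 108, 109 and 114 CPM in WT libraries, 84.9, 88.3 and 90.5 CPM in Mut_IDR3 libraries and 97.8, 93.0 and 96.6 CPM in dIDR3 libraries, against 77.0, 81.0 and 73.8 CPM in GFP libraries. Its libraries with each construct lay above GFP, and the log2 fold change with WT was 0.30 with the GC trend removed, against 0.24 for BIRC5 (survivin) and -0.02 for INCENP, whose call was lost.

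The spindle checkpoint genes moved the other way, with 4 of 5 lower and BUB3 not called. TTK, the kinase at the head of the checkpoint, had 16.3, 19.0 and 23.8 CPM in WT libraries, 27.8, 24.7 and 26.9 CPM in Mut_IDR3 libraries and 27.3, 40.6 and 34.3 CPM in dIDR3 libraries, against 44.6, 35.0 and 42.9 CPM in GFP libraries. WT libraries were the lowest 3, and the level with WT was 2.07-fold lower than with GFP (log2 fold change -1.05, SE 0.15, adjusted p = 2.85e-05; -0.58 with the GC trend removed). BUB1B, which encodes BubR1, had 44.7, 53.4 and 52.3 CPM in WT libraries, 72.8, 70.1 and 73.0 CPM in Mut_IDR3 libraries and 80.5, 99.3 and 83.0 CPM in dIDR3 libraries, against 82.3, 79.1 and 92.8 CPM in GFP libraries. WT libraries lay below all others, and dIDR3 libraries overlapped GFP libraries (log2 fold change -0.76, SE 0.09, adjusted p = 4.85e-06 for WT against GFP; -0.53 with the GC trend removed). MAD2L1, the checkpoint protein MAD2, fell by 0.41 on the log2 scale and BUB1, a checkpoint kinase, by 0.17; with the GC trend removed both were positive, at 0.14 (adjusted p = 0.11) and 0.14 (adjusted p = 0.021). BUB1 was not called without WT replicate 1, GFP replicate 2 or GFP replicate 3.

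Of the 6 kinetochore and centromere genes, 5 fell with WT and CENPA rose. CENPF, a large protein of the outer kinetochore, had 71.0, 81.0 and 134 CPM in WT libraries, 139, 102 and 122 CPM in Mut_IDR3 libraries and 108, 159.9 and 170.0 CPM in dIDR3 libraries, against 245, 193 and 221 CPM in GFP libraries. WT replicate 3 stood above the other WT libraries, yet all 3 lay below all GFP libraries. It was 2.30-fold lower with WT (log2 fold change -1.20, SE 0.21, adjusted p = 0.000158), and the log2 fold change was -0.73 with the GC trend removed. CENPE, a kinesin that moves chromosomes to the spindle equator, had 3.91, 4.88 and 6.30 CPM in WT libraries, 6.43, 5.71 and 6.52 CPM in Mut_IDR3 libraries and 4.72, 8.55 and 11.5 CPM in dIDR3 libraries, against 12.9, 7.82 and 9.27 CPM in GFP libraries. Its groups with WT and GFP did not overlap, but it was the least abundant of the 50 genes per kilobase in GFP libraries and its error was large (log2 fold change -0.99, SE 0.27, adjusted p = 0.00604; -0.35 and not called with the GC trend removed). The Ndc80 complex, which grips microtubules, fell with log2 fold changes of -0.97 for NDC80, -0.79 for NUF2 and -0.45 for SPC25, and with the GC trend removed NDC80 was called (-0.51) while NUF2 and SPC25 were not. CENPA, the histone that marks centromeres, had 41.3, 43.9 and 39.2 CPM in WT libraries, 41.4, 37.0 and 34.9 CPM in Mut_IDR3 libraries and 39.2, 37.0 and 37.4 CPM in dIDR3 libraries, against 33.0, 34.5 and 37.0 CPM in GFP libraries. WT libraries lay just above those with GFP (log2 fold change 0.25, adjusted p = 0.0153; 0.21 with the GC trend removed; not called without GFP replicate 1, adjusted p = 0.0561).

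Among the 9 kinesins, 7 fell with WT and KIF20A and KIF2C rose. KIF15, which supports bipolar spindles beside KIF11, had 7.33, 6.84 and 10.8 CPM in WT libraries, 18.4, 11.8 and 15.8 CPM in Mut_IDR3 libraries and 12.7, 18.6 and 18.3 CPM in dIDR3 libraries, against 27.3, 19.5 and 28.3 CPM in GFP libraries. WT libraries lay below all others, GFP libraries above all others. The 2.99-fold decrease with WT was the largest of the 50 genes (log2 fold change -1.58, SE 0.21, adjusted p = 1.57e-05), and the log2 fold change was -1.19 with the GC trend removed. KIF18A, which damps chromosome movements at the plate, had 7.52, 8.97 and 12.05 CPM in WT libraries, 15.7, 10.9 and 13.5 CPM in Mut_IDR3 libraries and 13.6, 15.9 and 18.4 CPM in dIDR3 libraries, against 22.2, 16.6 and 22.3 CPM in GFP libraries. Its WT libraries lay below all GFP libraries, and WT replicate 3 lay above Mut_IDR3 replicate 2 (log2 fold change -1.10, SE 0.18, adjusted p = 0.000114; -0.46 with the GC trend removed). KIF11, KIF14, KIF20B and KIF23, motors of the spindle and of cytokinesis, fell with log2 fold changes of -1.02, -1.03, -0.71 and -0.72, and KIF4A, the chromokinesin, with -0.21. With the GC trend removed these values were -0.37, -0.40, -0.08, -0.41 and -0.19, and KIF20B was also not called without WT replicate 1 or GFP replicate 1. KIF20A, which carries the passenger complex to the midzone, had 207, 211 and 186 CPM in WT libraries, 149, 151 and 143 CPM in Mut_IDR3 libraries and 177, 168 and 164 CPM in dIDR3 libraries, against 160.1, 154 and 163 CPM in GFP libraries. WT libraries were the highest, and Mut_IDR3 libraries the lowest (log2 fold change 0.34, SE 0.06, adjusted p = 0.000102 for WT against GFP; 0.21 with the GC trend removed). KIF2C, a microtubule depolymerase, rose by 0.17 (adjusted p = 0.0303) and was not called without WT replicate 1 or 2 or without GFP replicate 1 or 2, nor with the GC trend removed (-0.04).

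Spindle assembly genes fell with WT except TPX2, the activator of Aurora A, which rose by 0.26 on the log2 scale (adjusted p = 0.000338; 0.28 with the GC trend removed). DLGAP5, which stabilises kinetochore fibres, had 14.96, 19.7 and 23.8 CPM in WT libraries, 31.5, 25.9 and 31.7 CPM in Mut_IDR3 libraries and 25.2, 34.5 and 35.9 CPM in dIDR3 libraries, against 42.6, 40.0 and 42.8 CPM in GFP libraries. WT libraries lay below all others and GFP libraries above all others (log2 fold change -1.10, SE 0.15, adjusted p = 2.45e-05; -0.46 with the GC trend removed). ASPM and HMMR, proteins of the spindle poles and fibres, fell with log2 fold changes of -1.06 and -0.99 (-0.42 and -0.35 with the GC trend removed).

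All 3 genes of the midzone and cytokinesis fell with WT. ANLN, the scaffold of the contractile ring, had 112, 122 and 160.5 CPM in WT libraries, 181, 164 and 176 CPM in Mut_IDR3 libraries and 195, 239 and 247 CPM in dIDR3 libraries, against 225, 205 and 229 CPM in GFP libraries. WT libraries were the lowest, and dIDR3 libraries spanned the GFP range (log2 fold change -0.74, SE 0.11, adjusted p = 5.28e-05 for WT against GFP; -0.26 with the GC trend removed). ECT2, the exchange factor that activates RhoA for cytokinesis, fell by 0.91 and PRC1, which bundles midzone microtubules, by 0.42 on the log2 scale, and ECT2 had -0.27 with the GC trend removed.

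All 5 genes of chromosome structure fell as well. SMC2, a core subunit of condensin, had 17.3, 21.7 and 27.7 CPM in WT libraries, 41.8, 30.8 and 37.1 CPM in Mut_IDR3 libraries and 34.8, 48.3 and 54.1 CPM in dIDR3 libraries, against 55.6, 32.8 and 56.4 CPM in GFP libraries. GFP replicate 2 lay below the other GFP libraries and still above all WT libraries (log2 fold change -1.12, SE 0.22, adjusted p = 0.000416; -0.48 with the GC trend removed). NCAPG, a subunit of condensin I, had 17.3, 21.8 and 27.0 CPM in WT libraries, 39.2, 33.8 and 38.8 CPM in Mut_IDR3 libraries and 34.4, 46.9 and 49.3 CPM in dIDR3 libraries, against 53.1, 41.5 and 47.4 CPM in GFP libraries. WT libraries lay below all others, and dIDR3 overlapped GFP (log2 fold change -1.10, SE 0.16, adjusted p = 2.69e-05; -0.55 with the GC trend removed). SMC4, the other core subunit, fell with -0.89, TOP2A, which untangles sister DNA, with -0.98, and MKI67, the proliferation marker that coats mitotic chromosomes, with -0.44. With the GC trend removed SMC4 had -0.24 and TOP2A -0.43, whereas MKI67 and PRC1, whose GC contents of 48.27% and 48.1% are near the median of 48.8% of all tested genes, had -0.48 and -0.46.

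The altered forms changed fewer of these genes than WT did relative to GFP, and also fewer of all features, of which 54.9% were called with WT. With Mut_IDR3, 14 genes fell, 6 rose and 30 did not pass, when 21.1% of all features were called (11.2% higher and 9.85% lower). The share of these genes that fell was above the background, which was not matched for GC content, and the share that rose was near it. The median log2 fold change of the 50 genes was -0.23. FOXM1, MYBL2, CDC20, PLK1, BIRC5 and CDCA8 rose, by 0.19 to 0.58. The genes that fell were CENPF (-0.86), KIF15 (-0.71), ASPM (-0.66), TOP2A (-0.64), HMMR (-0.63), TTK (-0.62), KIF18A (-0.61), ECT2 (-0.59), DLGAP5 (-0.49), BUB1 (-0.43), KIF11 (-0.34), ANLN (-0.34), NEK2 (-0.30) and MAD2L1 (-0.23), and 9 of the 20 calls were still made with the same sign with the GC trend removed. FOXM1, MYBL2, CDC20, BIRC5, BUB1, TTK, ECT2 and TOP2A were called whichever single library was left out. The count of lower genes was 5 without GFP replicate 1, 5 without GFP replicate 3, 4 without Mut_IDR3 replicate 2 and 5 without Mut_IDR3 replicate 3.

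With dIDR3, 9 genes rose, 6 fell and 35 did not pass, when 29.0% of all features were called (15.6% higher and 13.4% lower), and the median was -0.04. The shares of these genes that rose and that fell were both near the background. The genes that rose were FOXM1 (0.65), MYBL2 (0.63), CDC20 (0.59), BIRC5 (0.45), PLK1 (0.35), CDCA8 (0.31), CDC25B (0.24), TPX2 (0.21) and AURKA (0.17). Those that fell were KIF15 (-0.60), CENPF (-0.59), TOP2A (-0.42), NEK2 (-0.39), CDC25C (-0.36) and BUB1 (-0.30), and 12 of the 15 calls were still made with the same sign with the GC trend removed. The number of lower genes was 2 without GFP replicate 1, 3 without GFP replicate 3 and 3 without dIDR3 replicate 1, and 8 genes were higher without that last library. CDC25B, AURKA, CDC25C, CENPF, KIF15 and TOP2A each lost the call without at least 1 library. CDK1 (0.01, SE 0.08) and MKI67 (-0.02, SE 0.08) had values smaller than their errors. All 3 comparisons with GFP use the same 3 control libraries, so their values are given side by side and their likeness was not tested.

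**Figure D5:**
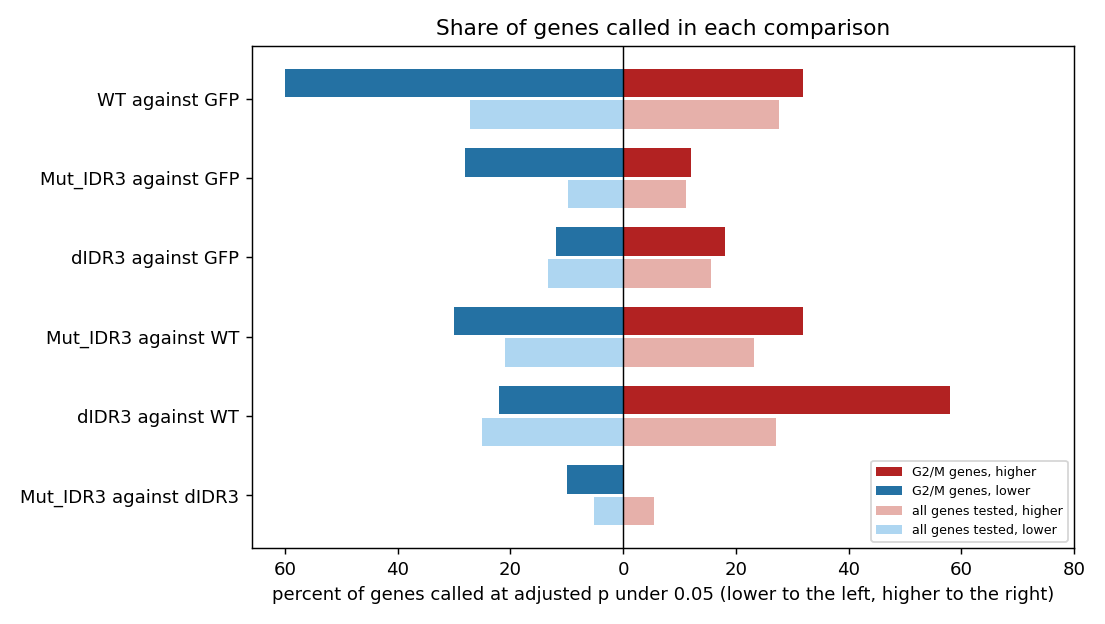
Percent of the 50 genes (dark bars) and of all features tested (pale bars) called lower (to the left) and higher (to the right) at an adjusted p under 0.05 in each comparison. The dark bar exceeds the pale bar most for lower genes in WT against GFP and for higher genes in dIDR3 against WT.

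The question of the series, whether altered IDR3 forms differ from WT, was addressed by direct comparison. With Mut_IDR3, 16 genes were higher than with WT and 15 lower, when 44.1% of all features were called (23.2% higher and 20.9% lower). The median log2 fold change was 0.24, against 0.03 for all features. With dIDR3, 29 genes were higher and 11 lower, when 52.3% were called (27.2% higher and 25.0% lower), with a median of 0.38. Both comparisons share the WT libraries with each other and with WT against GFP. Without WT replicate 3, 25 genes were higher and 14 lower with Mut_IDR3, and 30 higher and 10 lower with dIDR3. Without dIDR3 replicate 1, 28 were higher and 11 lower with dIDR3.

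All 3 APC/C genes, with AURKB and CDCA8 of the passenger complex, were lower with both altered forms than with WT. AURKB, at the levels given above, was lower by log2 fold changes of -0.49 with Mut_IDR3 (SE 0.05, adjusted p = 3.46e-06) and -0.57 with dIDR3 (SE 0.05, adjusted p = 4.62e-07). UBE2C and PTTG1 were lower in both comparisons (-0.40 and -0.34 with Mut_IDR3, -0.44 and -0.45 with dIDR3), as were CDC25B (-0.49 and -0.39), KIF20A (-0.45 and -0.25) and KIF2C (-0.32 and -0.24). PLK1 and CDC20 were lower with Mut_IDR3 (-0.33 and -0.35) and with dIDR3 (-0.23 and -0.15), where the GC trend removed gave 0.000 and 0.07. CCNB1 was lower with Mut_IDR3 (-0.21, adjusted p = 0.0443), but not when any single library of the 6 other than WT replicate 3 was left out (-0.11, adjusted p = 0.208, without WT replicate 2). FOXM1 was not called against WT with Mut_IDR3 (-0.09, SE 0.06) or dIDR3 (0.12, SE 0.06).

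Relative to WT, genes of chromosome structure, cytokinesis, motors, kinetochore and checkpoint were called higher in part with Mut_IDR3 and in larger number with dIDR3. The motors KIF20A and KIF2C were lower with both. BUB1, of the checkpoint, was called lower with Mut_IDR3 whichever single library was left out. With the GC trend removed BUB1 had -0.46 with Mut_IDR3 (adjusted p = 2.76e-06) and -0.39 with dIDR3 (adjusted p = 9.28e-06). It was not called with dIDR3 as tested. With Mut_IDR3, 3 of 5 chromosome structure genes, 2 of 3 cytokinesis genes, 4 of 9 kinesins, 2 of 6 kinetochore genes and 2 of 5 checkpoint genes were higher. All 5 chromosome structure genes and all 3 cytokinesis genes were higher with dIDR3, as were 7 of 9 kinesins, 5 of 6 kinetochore genes and 3 of 5 checkpoint genes. SMC2 had the largest difference (log2 fold change 1.04, SE 0.21, adjusted p = 0.000853; 0.55 with the GC trend removed), followed by KIF15 (0.98), NCAPG (0.98), NDC80 (0.87), KIF11 (0.87) and SMC4 (0.86). With Mut_IDR3 the largest called values were those of KIF15 (0.87), NCAPG (0.76), NDC80 (0.71), SMC2 (0.71) and KIF11 (0.68). BUB1B was higher by 0.52 with Mut_IDR3 (adjusted p = 0.000273) and 0.80 with dIDR3 (adjusted p = 3.14e-06). CENPF was higher with dIDR3 by 0.61 (adjusted p = 0.0212), and by 0.94 without WT replicate 3, whose level of 134 CPM stood above its group. It was not called without WT replicate 1 (0.44, adjusted p = 0.104), WT replicate 2, dIDR3 replicate 2 or dIDR3 replicate 3, by DESeq2, or with the GC trend removed (0.23). CENPE (0.71, or 0.37 without dIDR3 replicate 3), NUF2 (0.45, or 0.28 without WT replicate 1) and KIF20B (0.67, or 0.43 without WT replicate 1) were each not called when any of 3 or more single libraries was left out, nor with the GC trend removed. Of the 40 calls with dIDR3, 31 held whichever library was left out, and those of CCNA2, CDC25C, CDC20, CENPE, CENPF, NUF2, KIF14, KIF20B and ASPM did not. Of the 31 calls with Mut_IDR3, 23 held, and those of CDK1, CCNB1, CDC25C, TTK, BIRC5, KIF18A, ANLN and SMC2 did not.

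These differences also followed GC content, in the opposite direction, with Spearman correlations across the 50 genes of -0.730 for Mut_IDR3 against WT and -0.759 for dIDR3 against WT (-0.394 and -0.440 over 12724 genes). Of the 25 genes of low GC content, 23 were higher with dIDR3 than with WT and 12 were higher with Mut_IDR3. With the GC trend removed, 22 of 31 calls were still made with the same sign for Mut_IDR3 and 23 of 40 for dIDR3, and the medians of the 50 genes were -0.02 and 0.12. CDK1, higher than WT by 0.31 with Mut_IDR3 and 0.49 with dIDR3 as tested, then had -0.07 and 0.003.

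Between the altered forms few genes differed. With Mut_IDR3 against dIDR3, 5 genes were lower, when 10.8% of all features were called (5.54% higher and 5.24% lower), and the median was -0.18. edgeR called 0 higher, against 1 at an unadjusted p under 0.05, 1 by DESeq2 (CCNB2) and 0 by limma-voom. CDC20, KIF20A and CCNB1, whose levels in every library are given above, were lower with Mut_IDR3 by log2 fold changes of -0.20 (adjusted p = 0.0278), -0.20 (adjusted p = 0.0328) and -0.28 (adjusted p = 0.0365). The Mut_IDR3 libraries of each of the 3 lay below the dIDR3 libraries. KIF4A (-0.19) and ANLN (-0.38) were the others. Called or not, 18 genes had Mut_IDR3 libraries all below dIDR3 libraries, and 1 gene had them all above. The share of all features whose libraries lay apart in this comparison was not counted, so these numbers have no background. edgeR called 2 genes without dIDR3 replicate 1, and 0 when any other single library of the 6 was left out. With the GC trend removed, 8 genes were lower, 4 of them among these 5, and 1 was higher, CCNB2 (0.20, adjusted p = 0.00309). Under that setting 2095 of the 14792 features were called in either direction.

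The changes with WT were also counted by promoter motif, beside the 27.1% of all features that fell and the 27.7% that rose. Of the 32 genes with CHR letters, 26 fell, 5 rose and CCNB2 did not pass, with a median log2 fold change of -0.75. Of the 11 with a window and no CHR letters, 3 fell, 6 rose and 2 did not pass, with a median of 0.17. Only TTTGAA and TTCGAA were searched, in 1 window per gene. Whether these 11 genes hold a site for MuvB in other letters or at another start was not tested. The transcripts of the CHR genes had a lower GC content (median 40.03%, against 48.42%), and the part of that difference in these counts was not tested.

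Another 124 tested genes of G2/M and mitosis came from lists of CDK1 control, checkpoint and kinetochore, APC/C, spindle, cytokinesis, and condensin and cohesin. With WT, 59 of them fell and 29 rose (median -0.15), when 27.1% of all features fell and 27.7% rose. With the GC trend removed, 50 fell and 23 rose, when 7111 of the 14792 features were called in either direction. The 124 genes were higher than WT in 62 cases and lower in 18 with Mut_IDR3, when 23.2% of all features were higher and 20.9% lower. With dIDR3, 78 were higher and 17 lower, when 27.2% of all features were higher and 25.0% lower. With the GC trend removed these counts were 46 and 17 for Mut_IDR3, when 6079 of the 14792 features were called in either direction. For dIDR3 they were 67 and 15, when 7248 of the 14792 features were called. WEE1, the kinase that restrains CDK1, rose with WT (0.65, or 1.30 with the GC trend removed), and TOPBP1, of the DNA damage checkpoint, fell (-1.21, or -0.89). KNTC1, of the checkpoint complex at kinetochores, had 14.1, 15.3 and 20.5 CPM in WT libraries, 43.7, 35.1 and 37.8 CPM in Mut_IDR3 libraries and 33.5, 46.3 and 39.4 CPM in dIDR3 libraries, against 69.9, 61.0 and 72.4 CPM in GFP libraries. WT libraries lay below all others, and GFP libraries above all others. It fell with WT more than any of the 50 genes (log2 fold change -2.03, SE 0.15, adjusted p = 3.46e-08; -1.55 with the GC trend removed). CEP192, a centrosome scaffold, fell (-1.83), as did PDS5B, a cohesin regulator (-1.61, or -0.96 with the GC trend removed), while UBE2S, the enzyme that extends ubiquitin chains for the APC/C, rose (1.07) beside UBE2C.

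Genes of G1/S and replication, the earlier wave of the cell cycle, were counted in the same way. Against GFP, 22 of 50 fell and 17 rose with WT (median -0.14), when 27.1% of all features fell and 27.7% rose. With Mut_IDR3, 22 rose and 2 fell, when 11.2% of all features rose and 9.85% fell. With dIDR3, 37 rose and 1 fell (median 0.37), when 15.6% of all features rose and 13.4% fell. MCM6, a subunit of the replicative helicase, fell with WT (-0.83, adjusted p = 1.68e-08) and was higher than WT with Mut_IDR3 (0.88) and dIDR3 (1.14). With the GC trend removed, 10 rose and 25 fell with WT, when 7111 of the 14792 features were called in either direction. Under that setting 38 rose and 1 fell with dIDR3, when 4662 of the 14792 features were called. Of these 50, 17 were lower with Mut_IDR3 than with dIDR3 and 0 were higher by edgeR, an unadjusted p under 0.05, DESeq2 or limma-voom. Among all features, edgeR called 5.24% lower and 5.54% higher in that comparison.

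Of 21 tested inhibitors and DREAM components, 8 fell and 7 rose with WT, when 27.1% of all features fell and 27.7% rose. CDKN1A, which encodes the CDK inhibitor p21 and lies upstream of the repression of G2/M genes, had 68.5, 65.5 and 77.7 CPM in WT libraries, 38.1, 39.7 and 36.6 CPM in Mut_IDR3 libraries and 34.4, 33.4 and 32.0 CPM in dIDR3 libraries, against 29.2, 29.9 and 24.8 CPM in GFP libraries. WT libraries lay above all others. The log2 fold change was 1.34 with WT (SE 0.09, adjusted p = 1.39e-08) and 0.45 with Mut_IDR3 (SE 0.09, adjusted p = 0.00307), and CDKN1A was lower than WT by 0.89 with Mut_IDR3 and 1.09 with dIDR3. CDKN2C, the inhibitor p18, rose with WT (0.98), whereas RBL1, the p107 pocket protein of DREAM, fell (-1.45), as did RB1 (-0.76), which had -0.12 and was not called with the GC trend removed. The values of CDKN1A, CDKN2C and RBL1 in WT against GFP were then 0.98, 0.63 and -0.97, each still called.

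Some counts can hold reads of other genes, since strand and multiple mapping are not given in the sources used here. Exons of NCAPG share 1631 bases with LCORL, those of SMC4 1561 with TRIM59 and 607 with IFT80, and those of FOXM1 781 with ITFG2, each on opposite strands. On the same strand, PRC1 shares 3181 exon bases with AC068831.7, BUB1B 457 with BUB1B-PAK6 and CENPA 138 with SLC35F6. KIF4A has a near-identical copy, KIF4B, which had 117 counts over all libraries.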

How the data were processed

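RNA of 12 libraries was measured as read counts per gene, which the authors deposited as 1 table of whole numbers. Per the labels' protocols, RNA was taken with an RNeasy kit and libraries were made with a SMARTer mRNA kit. Tools named in the submitters' processing notes are Trim Galore, HISAT2 and StringTie, with build GRCh38/hg38 and no versions. The counting program, annotation release and strand setting are not given in the sources used here.

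From the deposited counts, features were kept by filterByExpr with the groups (14792 of 24302), scaled by TMM and tested in R 4.3.3 with edgeR 4.0.16, by its quasi-likelihood F test. All 4 groups entered 1 fit, which left 8 residual degrees of freedom. P-values were adjusted by Benjamini-Hochberg over all tested features in each comparison, and called under 0.05. CPM are counts per 1000000 of the TMM-scaled library size, and SE is the log2 fold change over the root of F. The lowest count of any of the 50 genes in a library was 142, and library totals were 30652851 to 43464956 counts.

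GC content and length are of the longest GENCODE v29 transcript, matched by gene identifier. For the trends, genes averaging 1 CPM or more were cut into 20 bins. Of the 14792 tested features, 12724 had a GC value, and the others were left unadjusted. Promoter windows are from RefSeq (GRCh38.p14), with 1-based coordinates.

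The 50 genes, the other lists and the alternatives were chosen with earlier results of these data known. Values per library are given by role for up to 2 genes with the highest and up to 2 with the lowest fold change called with WT, and for the 3 with the lowest adjusted p between the altered forms; not every gene that met this is given in full. Any of the 50 genes may be named. Of other lists, up to 4 called genes with the lowest adjusted p of a comparison are named, besides CDKN1A and TFAP2B.

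The alternatives tried were scaling by median ratios or upper quartiles, leaving out the filter, a filter of 1 CPM in 3 libraries, only the 2 groups compared, the replicate number as a block, removal of GC or length trends, each library left out, limma-voom (limma 3.58.1) and DESeq2 1.42.0. The code was tested on simulated counts.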

Additional observations from a re-analysis of the deposited data

How the results depend on the processing

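Counts of called genes among the 50 moved by over 1.5 times under several settings. With the GC trend removed, alone or with the replicate block, 18 genes were lower in WT against GFP under both. In Mut_IDR3 against GFP, 12 and 11 were called, 8 and 7 of them lower. In Mut_IDR3 against WT, 8 and 9 were higher. In dIDR3 against WT, 16 were higher under both, and 26 were called with the block. In Mut_IDR3 against dIDR3, 9 were called under both, 1 higher and 8 lower. With the GC trend removed alone, 7111 of all 14792 features were called in WT against GFP. The numbers were 2232 in Mut_IDR3 against GFP and 4662 in dIDR3 against GFP. They were 6079 in Mut_IDR3 against WT, 7248 in dIDR3 against WT and 2095 in Mut_IDR3 against dIDR3. With only the 2 groups compared, Mut_IDR3 against GFP gave 34 calls, 27 of them lower, and Mut_IDR3 against dIDR3 gave 13, with 1 higher and 12 lower. DESeq2 gave 22 lower in Mut_IDR3 against GFP, and 11 calls, 1 higher and 10 lower, in Mut_IDR3 against dIDR3. In that last comparison upper-quartile scaling gave 3 calls, 1 higher and 2 lower, and a minimum of 1 CPM in 3 libraries gave 1 higher.

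When each library was left out in turn, calls numbered 42 to 46 in WT against GFP (14 to 17 higher, 27 to 30 lower), 8 to 20 in Mut_IDR3 against GFP (4 to 6 higher, 4 to 14 lower) and 10 to 16 in dIDR3 against GFP (7 to 8 higher, 2 to 8 lower). They numbered 25 to 39 in Mut_IDR3 against WT (12 to 25 higher, 13 to 15 lower), 34 to 40 in dIDR3 against WT (23 to 30 higher, 10 to 12 lower) and 0 to 2 in Mut_IDR3 against dIDR3. A pair of libraries then stood for 1 group, and the calls of 40 of 46 genes with WT held in every such fit.

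The sign of a gene called in at least 1 of the settings compared turned when the GC trend was removed, alone and with the replicate block. In WT against GFP these were CDK1 (0.16 and 0.16), CCNA2 (0.13 and 0.13), NEK2 (0.12 and 0.12), MYBL2 (-0.032 and -0.032), BUB1 (0.14 and 0.14), MAD2L1 (0.14 and 0.14), INCENP (-0.019 and -0.019), SPC25 (0.023 and 0.023) and KIF2C (-0.041 and -0.042). In Mut_IDR3 against WT they were CDK1 (-0.074 and -0.074) and CCNA2 (-0.18 and -0.18), and in dIDR3 against WT CCNA2 (-0.052 and -0.052), PLK1 (0.000 and 0.000), BUB3 (-0.27 and -0.27), MAD2L1 (-0.064 and -0.061) and CDC20 (0.073 and 0.073). CCNA2 in Mut_IDR3 against WT and BUB3 in dIDR3 against WT were not called as tested and were called with the trend removed. The cause was not tested.

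The replicate numbers did not pair the libraries: over 18 pairs of the same number the correlation of deviations ran from -0.068 to 0.076, and 3 of 12 libraries correlated best with their own number. With the replicate block alone, calls were 45 in WT against GFP, 22 in Mut_IDR3 against GFP, 16 in dIDR3 against GFP, 31 in Mut_IDR3 against WT, 40 in dIDR3 against WT and 3 in Mut_IDR3 against dIDR3, all 3 lower. Depth and 3 libraries a group limit the smaller changes: CENPE, with the lowest counts of the 50 genes, had an SE of 0.27 in WT against GFP.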

Other observations

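Transcript length moved with the changes as well as GC content. Of the 25 genes with a longest transcript above the median of 3586.5 bases, 20 fell and 4 rose with WT (median log2 fold change -0.76), and of the 25 others 10 fell and 12 rose (median 0.09). Among all features, 27.1% fell and 27.7% rose with WT. With the length trend removed, 28 of the 50 genes fell and 13 rose with WT, when 8036 of the 14792 features were called in either direction.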
